A study of Mus musculus with 9 samples.

Results

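The 7 genes of the paranodal axoglial junction were followed by name, namely *Nfasc*, *Cntn1*, *Cntnap1*, *Epb41l3*, *Ank2*, *Sptan1* and *Sptbn1*. All 7 were among the 36121 genes of the deposited expression table. They were chosen for their place in the junction, with earlier results of these data known. The table holds bulk RNA sequencing of sciatic nerve from 21-day-old C57BL6 mice with 3 mice per group. The cKO mice carried Cnp-Cre and Tardbp-fl/fl, the cHet mice carried Cnp-Cre and Tardbp-fl/+, and the control mice carried Tardbp-fl/fl without Cre. Thus every mouse had at least one floxed *Tardbp* allele, and cKO and cHet mice shared the Cre. Cre was driven from the locus of *Cnp*, a gene of myelinating glia, so the deletion was aimed at Schwann cells and not at the axons in the nerve. Each group had 2 females and 1 male, and each library is called here by its group and replicate number (cKO 1 to cKO 3, and so on).

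At the paranode, the loops of the myelin sheath attach to the axon on each side of the node of Ranvier. On the glial side the adhesion molecule is NF155, a form of neurofascin made from *Nfasc*, and on the axonal side its partners are contactin and Caspr, made from *Cntn1* and *Cntnap1*. In the axon, protein 4.1B (*Epb41l3*) links Caspr to the submembrane cytoskeleton of alphaII spectrin (*Sptan1*) and betaII spectrin (*Sptbn1*). Ankyrin-B (*Ank2*) is an adaptor that binds neurofascin and spectrin, and the study describes it as a scaffold protein associated with NF155. The scaffold genes are used by many cell types.

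*Nfasc* makes several proteins, and the table gives a single value for all of its transcripts. The sequences printed here show what that value joins. They are from the study's exon list for *Nfasc*, on the minus strand of chromosome 1 in GRCm38. Exon 24 (chr1:132597765-132597969) belongs to NF155, and exon 28 (chr1:132588074-132588310) to NF186, the form that axons place at the node. CE1 (chr1:132607987-132608090) is the exon the study named cryptic, and capitals mark the first stop codon in its reading frame, at bases 24 to 26 of its 104 bases.
CE1: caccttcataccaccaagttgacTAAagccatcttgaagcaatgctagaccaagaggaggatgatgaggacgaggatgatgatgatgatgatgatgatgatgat
exon 24: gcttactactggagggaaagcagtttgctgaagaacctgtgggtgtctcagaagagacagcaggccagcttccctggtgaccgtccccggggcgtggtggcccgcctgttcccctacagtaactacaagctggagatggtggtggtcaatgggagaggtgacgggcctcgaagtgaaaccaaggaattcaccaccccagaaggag
exon 28: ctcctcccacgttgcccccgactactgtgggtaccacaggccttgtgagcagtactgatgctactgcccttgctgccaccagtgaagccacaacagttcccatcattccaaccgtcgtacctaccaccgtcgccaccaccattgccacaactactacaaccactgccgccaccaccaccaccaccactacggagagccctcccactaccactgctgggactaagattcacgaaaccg
Of the 6 protein-coding *Nfasc* transcripts in GENCODE M21, 4 hold exon 24, 2 hold exon 28, 1 holds both and 0 hold CE1. The *Nfasc* values here therefore cannot show which exons were used.

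The genes lie on 6 chromosomes in GRCm38. *Nfasc* spans 177108 bases of chromosome 1 (132564690 to 132741797), *Cntn1* 290803 bases of chromosome 15 (92051165 to 92341967) and *Epb41l3* 214307 bases of chromosome 17 (69075683 to 69289989). *Ank2* is the longest, with 577739 bases of chromosome 3 (126921612 to 127499350) and 16 coding transcripts, and *Sptan1* spans 65892 bases of chromosome 2 (29965560 to 30031451). *Cntnap1* (101170523 to 101190724, 20202 bases) and *Sptbn1* (30099395 to 30268175, 168781 bases) share chromosome 11. *Cntnap1* overlaps 2 genes of the opposite strand in the table, *Plekhh3* (mean 17.1 normalized TPM) and *Ccr10* (mean 1.32 normalized TPM). Whether strand was used in the quantification is not stated, which leaves the low *Cntnap1* values uncertain.

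The labels were checked on *Tardbp*, which encodes TDP-43. It stood at 94.2 to 103 normalized TPM in the cKO libraries, 177 to 186 in the cHet libraries and 185 to 217 in the control libraries, so that the cKO libraries were separate from the rest (log2 fold change −0.98 for cKO against control, limma adjusted p = 0.00219). The level is over the whole gene and does not isolate the floxed part. In 3 libraries (cKO 1, cKO 2 and cHet 1) the genotype field differs from the sample title, and groups follow the titles. The field gives Cnp-Cre with Tardbp-fl/+ for cKO 1 and cKO 2, and Tardbp-fl/fl without Cre for cHet 1. *Tardbp* was 103 and 94.2 normalized TPM in cKO 1 and cKO 2, near cKO 3 (103) and far below every cHet library, as their titles have it. It was 177 in cHet 1, the lowest of the 6 other libraries, but the cHet and control ranges overlap, so *Tardbp* is a weak check there. *Cnp*, at whose locus the Cre sits, was 640 normalized TPM in cHet 1 and below every control library (1168 to 1700). *Cnp* averaged 617 ± 160 normalized TPM in cKO nerves, 764 ± 110 in cHet nerves and 1379 ± 283 in control nerves (SD, n = 3 each). Control mice had no Cre, so cKO against control differs in Cre and *Cnp* level as well as in *Tardbp*. These cannot be told apart there, nor fully in cKO against cHet and control together, whereas cKO and cHet share the Cre.

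Libraries also differed in RNA of other cell types, and this touches several of the 7 genes. One library in each group was high in a list of 16 neuron markers, by over 1.5 on the log2 scale above the median library. These libraries were cKO 3 (2.58 above), cHet 1 (2.45 above) and control 2 (3.70 above). Summed over the list, the libraries held 372 to 2024 normalized TPM in cKO, 184 to 1827 in cHet and 181 to 4596 in control nerves, and none of the 16 was at 0. The 12 Schwann cell markers ranged over less, from −0.05 to 0.29 around the median library in cKO, −0.23 to 0.22 in cHet and −0.19 to 0.34 in control nerves. Skeletal muscle markers were high in cKO 3 and control 1, adipocyte markers in control 1 and control 3, and oligodendrocyte markers in control 3.

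TPM are scaled for transcript length, so levels can be set side by side between genes. The spectrins were the most abundant of the 7. In every library *Sptan1* and *Sptbn1* took the first 2 places, with means over the 9 libraries of 253 and 281 normalized TPM. *Nfasc* (mean 132), *Ank2* (75.8) and *Epb41l3* (70.4) shared places 3 to 5, while *Cntn1* (11.6) and *Cntnap1* (5.70) always came last. The spread between libraries also differed from gene to gene. The highest library exceeded the lowest 1.43-fold for *Sptan1* and 1.67-fold for *Sptbn1*, 2.45-fold for *Nfasc* and 2.73-fold for *Ank2*, and 7.27-fold for *Cntnap1*, 8.62-fold for *Epb41l3* and 11.3-fold for *Cntn1*.

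**Figure D1:**
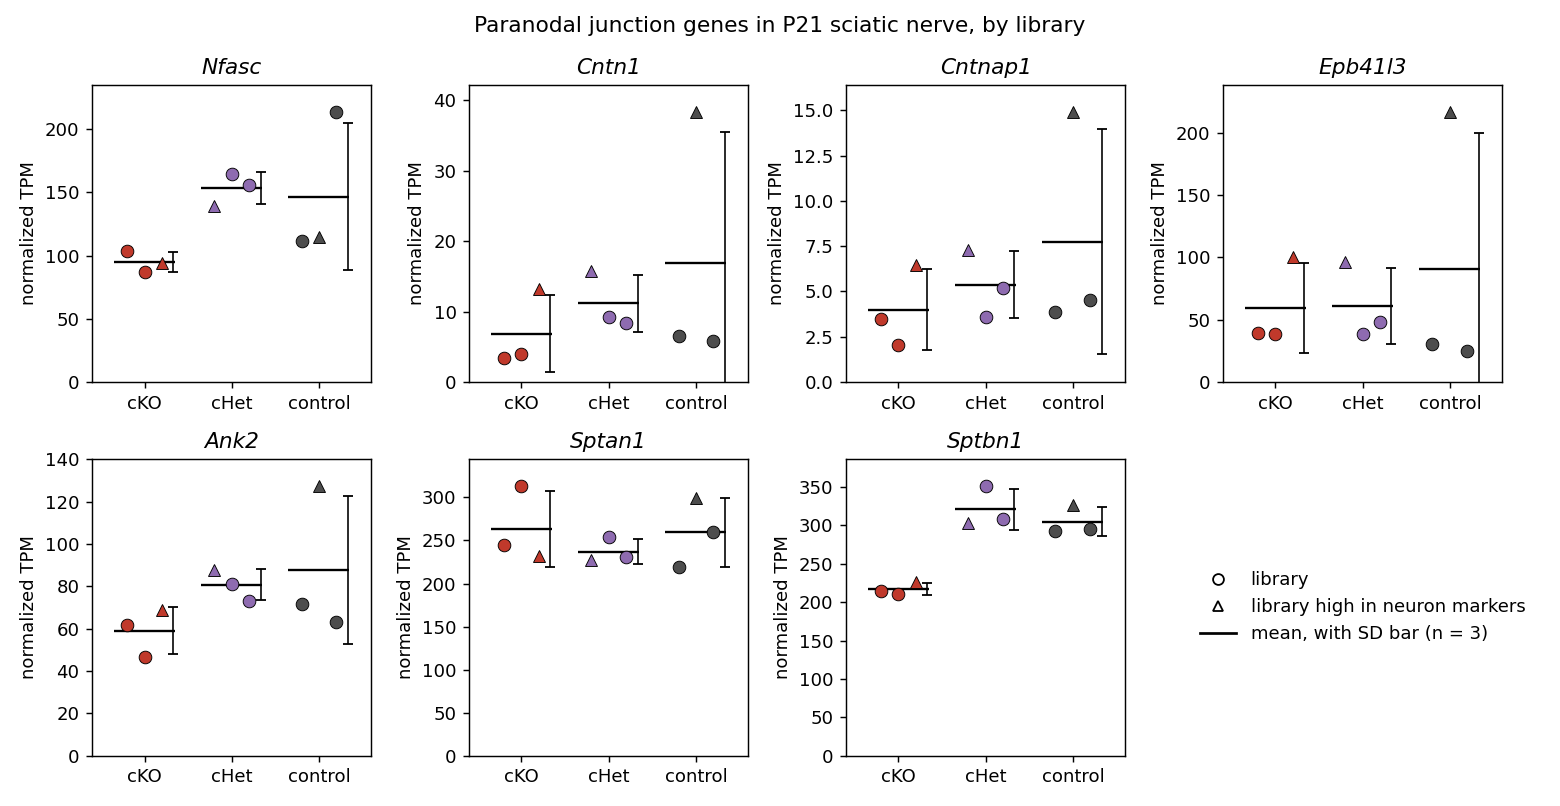
Normalized TPM of each of the 7 genes (vertical axes, from 0) in the 3 cKO, 3 cHet and 3 control libraries. Points are libraries, triangles the library of each group that was high in neuron markers, lines the group means and bars 1 SD, drawn down to 0 where they would pass below it. The cKO libraries lie below all others for *Nfasc* and *Sptbn1*, and the triangles stand highest in every group for *Cntn1*, *Cntnap1*, *Epb41l3* and *Ank2*.

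Between genotypes, *Sptbn1* was the 1 member of 7 that passed the test across all genes, and it was lower in cKO nerves. It passed against control (1 of 7 members, where 1.57% of the 15014 tested genes passed, 0.633% lower and 0.932% higher). It also passed against cHet (1 of 7, where 1.71% of genes passed, 0.773% lower and 0.932% higher) and against cHet and control together (1 of 7, where 3.02% passed, 1.33% lower and 1.69% higher). Against the whole table, 1 of 7 is too small a count to set the junction genes apart. In cHet against control, 0 of 7 members and 0% of all genes passed in limma, with 0 members and 408 genes at an unadjusted p under 0.05. The median log2 fold change of the 7 was −0.51 for cKO against control, beside −0.02 for all tested genes, −0.46 beside 0.02 for cKO against cHet, and −0.05 beside −0.03 for cHet against control. The first of these medians is the *Ank2* value, which depended on control 2, a library high in neuron markers. Without control 2, *Ank2* was −0.21, *Cntn1* −0.09 and *Cntnap1* −0.17 against control, whereas *Sptbn1* was −0.44.

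Separation of the libraries gave a similar picture. For 2 of the 7 genes (*Nfasc* and *Sptbn1*) every cKO library was below every control library, as for 8.57% of tested genes. For 3 of 7 (with *Ank2* added) every cKO library was below every cHet library, as for 11.0% of tested genes. For 2 of 7 every cKO library was below all 6 others, as for 5.65% of tested genes. In the other direction, with every cKO library above, the count was 0 of 7 in each of these comparisons. The share of all tested genes was not counted in that direction, so this 0 cannot be read as a trend.

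*Nfasc*, which encodes the Schwann cell adhesion molecule of the junction as well as axonal forms, had 103, 87.1 and 93.9 normalized TPM in cKO nerves, against 139, 165 and 156 in cHet nerves and 111, 115 and 214 in control nerves. The 3 cKO libraries were the lowest of the 9, cHet libraries were close together, and control 3 stood far above the other control libraries. On average cKO nerves held 64.7% of the control level and 61.8% of the cHet level. The log2 fold change was −0.56 (95% interval −1.08 to −0.04) against control and −0.69 (−1.21 to −0.17) against cHet. Neither passed in limma (adjusted p = 0.348 and 0.209), nor did cKO against both together (−0.63, adjusted p = 0.155). On *Nfasc* alone, a two-sided exact permutation test gave p = 0.1 in each comparison with 3 libraries a side, the smallest p that design allows, and p = 0.0476 for the 3 cKO against the 6 others. For cHet against control the estimate was 0.13 (−0.39 to 0.65).

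Control 3 decided how large the *Nfasc* difference appeared. Without it, the log2 fold change of cKO against control was −0.26, while that of cKO against cHet kept its size (−0.69) and passed, since the spread was estimated without that library (adjusted p = 0.0214, and 0.0375 against both together). Control 3 also held 138 normalized TPM of *Mobp* and 3.96 of *Mog*, markers of oligodendrocytes, which also make NF155. *Mobp* was 18.0 to 32.2 in cKO, 9.69 to 20.05 in cHet, and 9.62 and 21.6 in the other control libraries, while *Mog* was at most 0.722 outside control 3. The list holds 4 oligodendrocyte markers, whose summed level was 19.1 to 33.6 normalized TPM in cKO, 10.2 to 20.4 in cHet and 10.04 to 144 in control nerves, and none was at 0. Of the other 2, *Ermn* was also highest in control 3 (0.629, and at most 0.255 elsewhere), whereas *Opalin* was not. *Opalin* had 0.769, 1.18 and 1.21 normalized TPM in cKO nerves, against 0.0325, 0.139 and 0.0774 in cHet nerves and 0.113, 0.0991 and 0.997 in control nerves. Control 3 was also the library highest in Schwann cell markers, at 0.34 above the median library on the log2 scale. The next was cKO 2, at 0.29. Of the control libraries, control 3 had the most *Cnp* (1700 normalized TPM). The part of either cell type in the *Nfasc* value was not tested. In bulk nerve, fewer cells of a type and less RNA per cell cannot be told apart.

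The partners on the axon gave far wider intervals. *Cntn1* had 3.40, 4.005 and 13.2 normalized TPM in cKO nerves, against 15.8, 9.22 and 8.44 in cHet nerves and 6.49, 38.3 and 5.77 in control nerves. The groups overlapped, and within each group the library high in neuron markers was the highest, at 3.56, 1.79 and 6.26 times the mean of the other 2 in cKO, cHet and control. For *Cntn1*, the log2 fold change of cKO against control was −0.94 (95% interval −2.61 to 0.73, limma adjusted p = 0.676), and −0.85 (−2.53 to 0.82) against cHet.

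*Cntnap1* had 3.49, 2.05 and 6.43 normalized TPM in cKO nerves, against 7.28, 3.59 and 5.21 in cHet nerves and 3.83, 14.9 and 4.50 in control nerves. Again the groups overlapped and the neuron-marker-high library led each group, at 2.32, 1.65 and 3.58 times the mean of the other 2 in cKO, cHet and control. Its log2 fold change stood at −0.75 (−1.97 to 0.47, limma adjusted p = 0.637) for cKO against control and −0.46 (−1.68 to 0.76) against cHet. Intervals this wide hold lower as well as higher levels in cKO, so the direction of neither gene was determined with 3 mice a group.

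*Epb41l3*, the adaptor below Caspr, was also highest where neuron markers were high. Its values were 39.0, 38.2 and 101 normalized TPM in cKO nerves, against 96.1, 38.8 and 47.8 in cHet nerves and 30.8, 217 and 25.1 in control nerves. Ordered by neuron marker level, the 3 libraries with the highest level had 96.1 to 217 normalized TPM, and the 6 others had 25.1 to 47.8. The log2 fold change was −0.06 (−1.87 to 1.75) for cKO against control, −0.08 for cKO against cHet and 0.02 for cHet against control. With those 3 libraries left out, the estimate for cKO against control was 0.47 (limma adjusted p = 0.367), so even its direction rested on them.

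**Figure D2:**
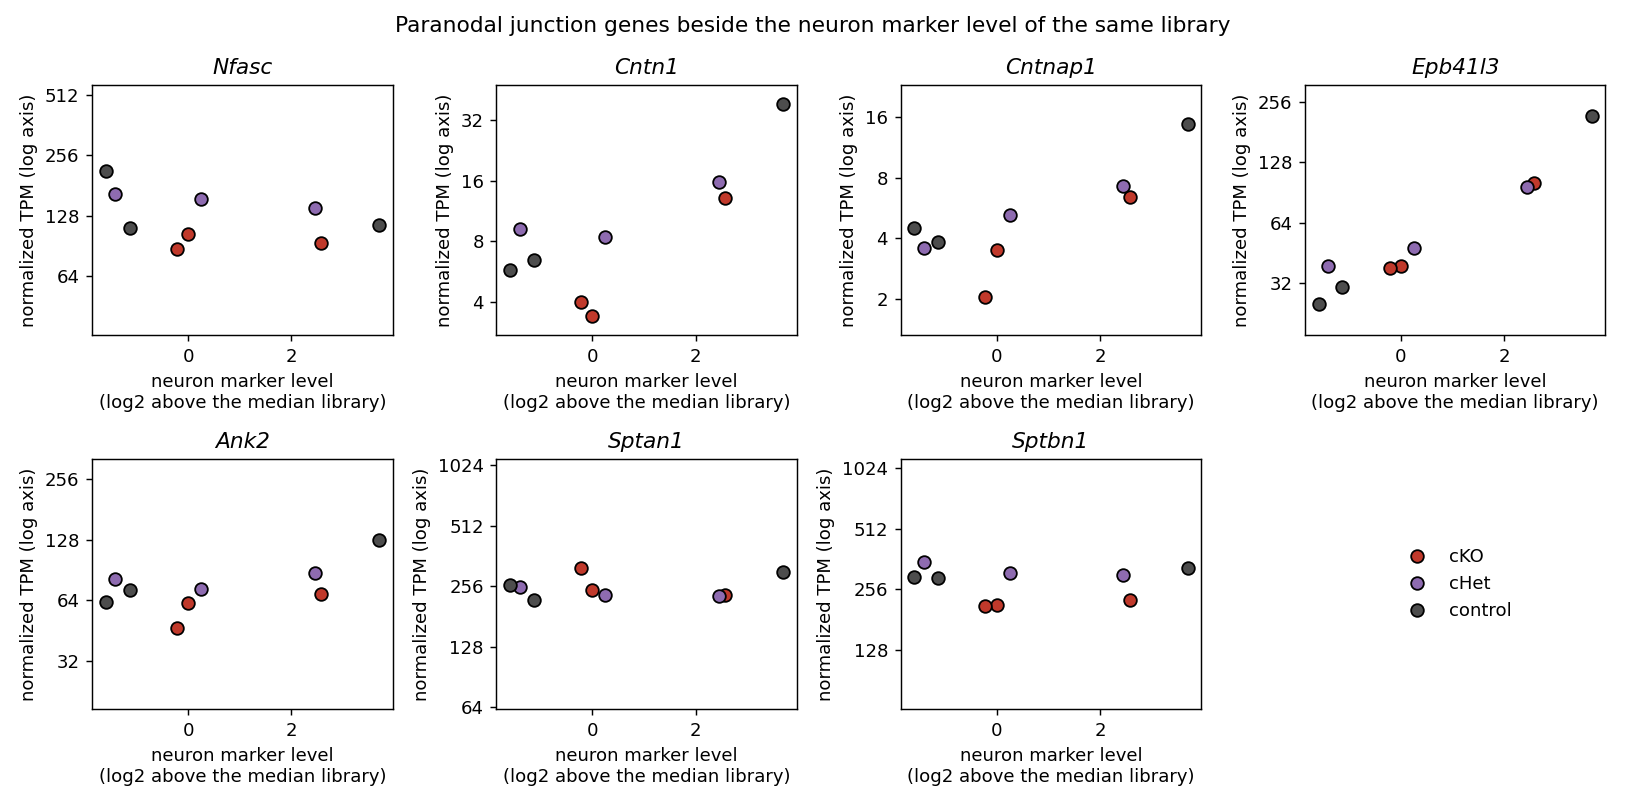
Normalized TPM of each gene (log2-spaced vertical axes, the same fold range in every panel) beside the mean log2 level of 16 neuron markers in the same library, relative to the median library (horizontal axes). Each point is a library, coloured by group. *Cntn1*, *Cntnap1* and *Epb41l3* are highest in the 3 libraries at the right, and *Sptbn1* and *Nfasc* keep the cKO points lowest along the whole axis.

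Of the scaffold, *Ank2* had 61.8, 46.8 and 68.6 normalized TPM in cKO nerves, against 87.7, 81.3 and 73.2 in cHet nerves and 71.9, 128 and 63.2 in control nerves. All cKO libraries were below all cHet libraries, whereas cKO and control overlapped through cKO 3 and control 3. In limma *Ank2* differed by −0.51 on the log2 scale (−1.09 to 0.07) against control and −0.46 (−1.04 to 0.12) against cHet, and did not pass (adjusted p = 0.461 and 0.455). Control 2, the library with the highest neuron marker level, also had the highest *Ank2*, and without it the first of these was −0.21.

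*Sptan1* was the steadiest of the 7. It had 245, 314 and 232 normalized TPM in cKO nerves, against 227, 254 and 230 in cHet nerves and 219, 299 and 260 in control nerves, with full overlap. Its log2 fold change was 0.02 (−0.32 to 0.36) for cKO against control, 0.14 (−0.20 to 0.48) for cKO against cHet and −0.12 (−0.46 to 0.22) for cHet against control.

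*Sptbn1*, whose product pairs with that of *Sptan1*, had 215, 211 and 226 normalized TPM in cKO nerves, against 303, 352 and 308 in cHet nerves and 293, 327 and 295 in control nerves. The 3 cKO libraries lay close together and well below the 6 others, whose 2 groups overlapped. The cKO libraries averaged 71.3% of the control level and 67.8% of the cHet level. In limma the log2 fold change was −0.49 ± 0.09 (SE, adjusted p = 0.0433) against control, −0.56 ± 0.09 (adjusted p = 0.0250) against cHet and −0.52 ± 0.08 (adjusted p = 0.0124) against both together. The exact permutation test of the 3 cKO against the 6 others gave p = 0.0119, the smallest that design allows. For cHet against control the log2 estimate was 0.07 (−0.14 to 0.28).

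The call on *Sptbn1* against control was near its threshold. It was lost whenever any one library was left out (adjusted p = 0.0562 to 0.158 over 9 such fits, with log2 fold changes of −0.51 to −0.44). Against cHet it held in 3 of 9 such fits, those without a control library, and was lost without any one cHet or cKO library (adjusted p up to 0.111). Against both together it held in 7 of 9 and was lost without cKO 1 or cKO 2 (adjusted p up to 0.0703). With the 3 neuron-marker-high libraries left out the fold changes were of like size, at −0.46 against control and −0.63 against cHet, with adjusted p = 0.283 and 0.189. Without the 3 libraries whose genotype field differs, which leaves 1 cKO library assumed to vary like the other groups, they were −0.43 and −0.54 (adjusted p = 0.756 and 0.591), and those of *Nfasc* were −0.57 and −0.77 (adjusted p = 0.984 and 0.797).

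**Figure D3:**
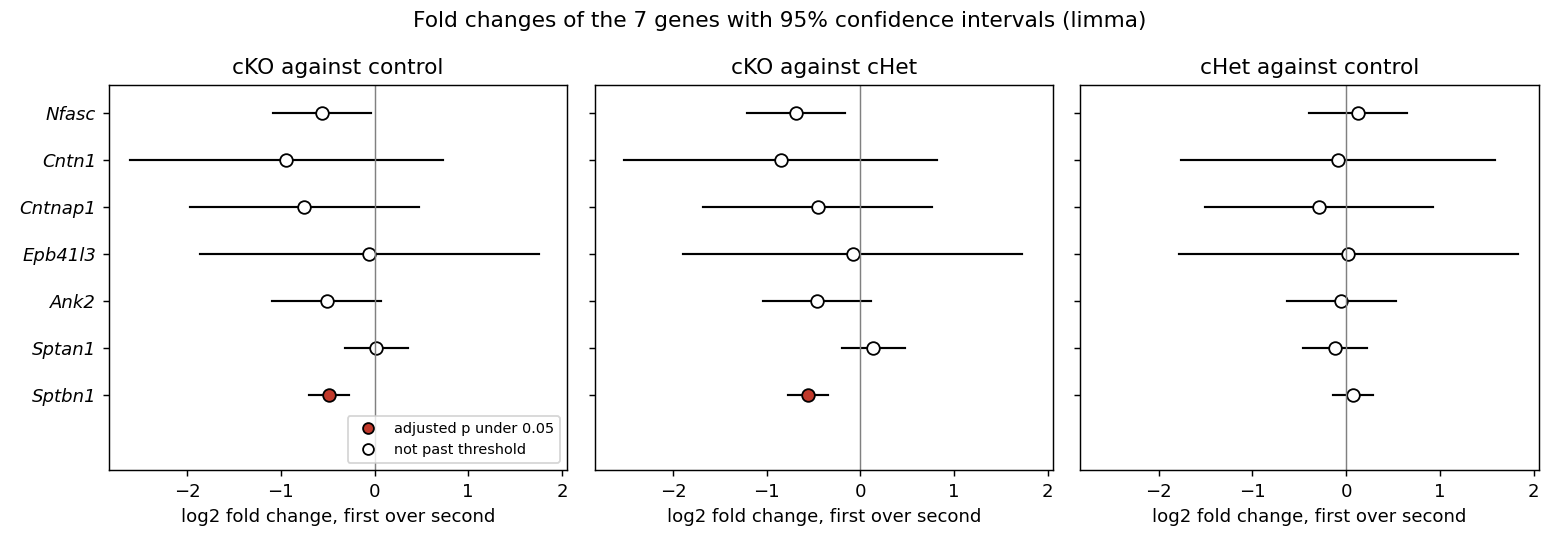
Log2 fold changes of the 7 genes (horizontal axes, first-named group over second) with 95% confidence intervals from limma, for cKO against control, cKO against cHet and cHet against control. Filled points passed an adjusted p of 0.05, which only *Sptbn1* did (−0.49 and −0.56), and the intervals of *Cntn1*, *Cntnap1* and *Epb41l3* are the widest.

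Ratios within a library do not depend on how libraries were scaled, so the same genes were set against their partners and relatives. The ratio of *Sptbn1* to *Sptan1* was 0.880, 0.673 and 0.976 in cKO nerves, against 1.33, 1.39 and 1.34 in cHet nerves and 1.34, 1.09 and 1.14 in control nerves. *Sptbn1* was thus below *Sptan1* in every cKO library and above it in every other library. Over 11 shares and ratios, the exact permutation p of 3 cKO against 6 others was 0.0119 here, and 0.131 after Benjamini-Hochberg adjustment. Among beta spectrins *Sptbn1* kept the main share, 78.1 ± 1.21% of their summed TPM in cKO, 81.4 ± 1.13% in cHet and 80.5 ± 3.10% in control nerves (SD, n = 3 each), with cKO and control overlapping. *Sptan1* made up over 99.9% of the alpha spectrin TPM in all 3 group means.

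*Ank2* took 32.9, 30.0 and 30.4% of the summed TPM of the 3 ankyrin genes in cKO nerves, against 44.8, 40.8 and 41.5% in cHet nerves and 33.7, 47.6 and 37.4% in control nerves. Every cKO library was below the 6 others, though control 1 came within 1 point of cKO 1. Its ratio to *Ank3*, which makes ankyrin-G, the main ankyrin of nodes, was 0.4996, 0.436 and 0.546 in cKO nerves, against 0.903, 0.699 and 0.737 in cHet nerves and 0.846, 1.12 and 0.603 in control nerves. The cKO libraries did not overlap with the 6 others in either quantity, whereas cHet and control overlapped (exact permutation p = 0.0357 for the share and 0.0238 for the ratio, both 0.131 adjusted, 3 cKO against 6 others). *Ank3* itself averaged 119 ± 10.1 normalized TPM in cKO, 104 ± 10.5 in cHet and 101 ± 14.7 in control nerves. *Ank1* counts in the share but not in the ratio, and ran from 0.909 to 56.4 normalized TPM over the libraries. It was highest in control 1 (56.4) and cKO 3 (31.3), the libraries high in skeletal muscle markers, which lowers the *Ank2* share there. The part of muscle RNA in the share was not tested.

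**Figure D4:**
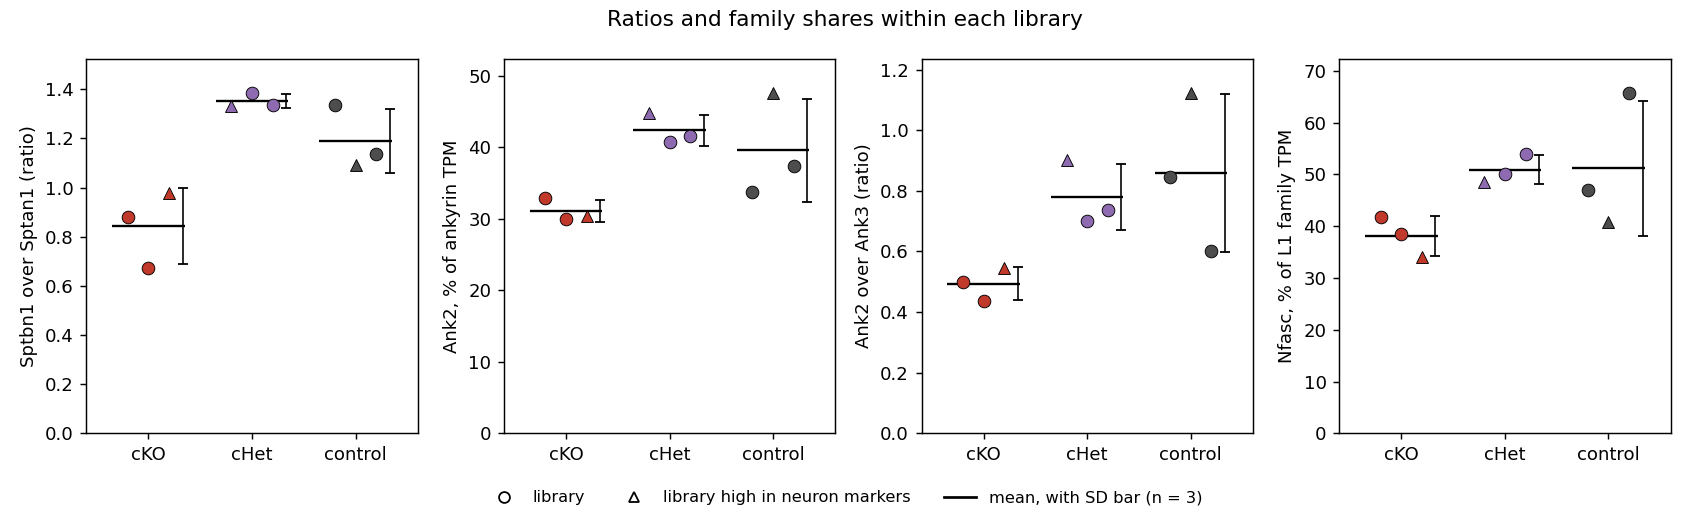
From left to right: the ratio of *Sptbn1* to *Sptan1*, the share of *Ank2* in ankyrin TPM, the ratio of *Ank2* to *Ank3*, and the share of *Nfasc* in the TPM of the L1 family (vertical axes, from 0), for each cKO, cHet and control library. Lines are group means, bars 1 SD and triangles the libraries high in neuron markers. All 3 cKO points lie below the other 6 in the first 3 panels, and control 2 (40.8%) lies below cKO 1 (41.9%) in the last.

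*Nfasc* belongs to the L1 family of adhesion molecules with *L1cam*, *Chl1* and *Nrcam*. It made up 41.9, 38.6 and 34.1% of the family's TPM in cKO nerves, against 48.5, 50.2 and 54.0% in cHet nerves and 47.1, 40.8 and 65.8% in control nerves. The lowest control library overlapped with the cKO group, and the exact permutation p over 3 cKO against 6 others was 0.0595 (0.164 adjusted). The relative that passed was *Chl1*, an adhesion molecule of growing axons also made by glia, with 46.1, 42.8 and 59.6 normalized TPM in cKO nerves, against 26.1, 33.5 and 24.7 in cHet nerves and 28.2, 26.9 and 20.1 in control nerves. All cKO libraries were above all others, with a log2 fold change of 0.97 ± 0.18 (SE, limma adjusted p = 0.0423) against control and 0.89 ± 0.16 (adjusted p = 0.0235) against both together, while 0.80 against cHet did not pass (adjusted p = 0.0755). The first of these was lost when any one library was left out, and the second held in 4 of 9 such fits (adjusted p up to 0.0969).

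The other shares and ratios of the 11 gave no separation of cKO from the 6 remaining libraries. *Cntn1* made 60.9 ± 4.72% of contactin TPM in cKO, 72.1 ± 16.4% in cHet and 71.5 ± 7.18% in control nerves, and *Cntnap1* 43.6 ± 13.6%, 59.3 ± 17.4% and 50.3 ± 25.8% of Caspr TPM in cKO, cHet and control (SD, n = 3 each). *Epb41l3* was a minor 4.1 protein transcript, 8.78 ± 5.02% in cKO, 9.37 ± 5.15% in cHet and 12.3 ± 12.9% in control nerves. *Cntnap1* per *Cntn1* was 0.675 ± 0.303 in cKO, 0.489 ± 0.116 in cHet and 0.587 ± 0.196 in control nerves. *Nfasc* per *Cntn1*, where *Nfasc* joins glial and axonal forms, ran from 7.12 to 30.4 in cKO nerves. It ran from 8.83 to 18.5 in cHet and 2.99 to 37.0 in control nerves. This last ratio was lowest in each group in the library high in neuron markers.

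Further genes of the junction and its surroundings were read from lists, also chosen with earlier results of these data known. Of 14 relatives of neurofascin, contactin and Caspr, 5 were abundant enough to test. Of these, 1 (*Chl1*) passed in the higher direction, against control and against both together. Among all tested genes, 0.932% passed in the higher direction against control and 1.69% against both together. Of 16 relatives of the ankyrins, spectrins, 4.1 proteins and adducins, 14 were tested and 0 passed in limma in any comparison. At an unadjusted p under 0.05 in limma, 2 of the 14 were lower in each of the 3 comparisons with cKO. In cHet against control 0 were. Among all 15014 tested genes, 967 were lower at that threshold for cKO against control, 1005 against cHet and 1187 against both together. For cHet against control 286 were lower. The median log2 fold change of the 14 was −0.27 for cKO against control, beside −0.02 for all tested genes. It was −0.08 beside 0.02 for cKO against cHet.

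Of 12 genes for paranodal lipids and membrane organisers, 1 passed, lower against cHet and against both together. Among all tested genes, 0.773% and 1.33% passed in the lower direction there. *Ugt8a*, the enzyme that makes galactocerebroside, a glycolipid needed for paranodal loops to attach, had 649, 661 and 545 normalized TPM in cKO nerves, against 906, 1156 and 1086 in cHet nerves and 961, 898 and 833 in control nerves. Every cKO library was below every other. The log2 fold change was −0.76 ± 0.13 (SE, limma adjusted p = 0.0303) against cHet and −0.65 ± 0.11 (adjusted p = 0.0230) against both together, and −0.54 (adjusted p = 0.103) against control. Leaving out 1 library at a time, the call against cHet held in 3 of 9 fits and that against both in 4 of 9.

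Of 18 tested genes of the node, juxtaparanode and internode, *Cadm3* was lower and *Ezr* higher. Among all tested genes, 0.633% passed in the lower direction against control, 0.773% against cHet and 1.33% against both together. In the higher direction 1.69% passed against both together. *Cadm3*, an axonal adhesion molecule of the internode in nerve, had 129, 130 and 145 normalized TPM in cKO nerves, against 192, 252 and 230 in cHet nerves and 192, 236 and 245 in control nerves. The neuron-marker-high library had the most *Cadm3* in cKO (145) but not in cHet (192) or control nerves (236). Which cells made the *Cadm3* RNA was not tested. The cKO libraries again stood apart, with log2 fold changes of −0.73 against control, against cHet and against both (limma adjusted p = 0.0376, 0.0347 and 0.0142), of which 2, 3 and 7 of 9 fits without 1 library kept the call. *Ezr*, ezrin of the Schwann cell microvilli, had 53.0, 58.4 and 53.3 normalized TPM in cKO nerves, against 39.5, 42.8 and 44.0 in cHet nerves and 37.8, 43.6 and 41.0 in control nerves, and passed only against both together (0.40, adjusted p = 0.0306, kept in 2 of 9 such fits). Without the 3 libraries of differing genotype field, the log2 fold changes of cKO against both together were 1.14 (*Chl1*), −0.88 (*Ugt8a*), −0.68 (*Cadm3*) and 0.34 (*Ezr*), and none of these 4 passed (adjusted p = 0.312 to 0.746).

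Profiles over the 9 libraries also placed the members. The genes with the pattern closest to *Nfasc*, by the root mean square difference of centred log2 values, were *Efcc1* (0.1002), *Plxna3* (0.122) and *Stard8* (0.128), where the *Nfasc* pattern itself has a root mean square of 0.398. All 3 were, like *Nfasc*, higher in control 3 than in any other library and lowest in the cKO libraries. *Efcc1*, for example, had 38.6, 34.3 and 34.8 normalized TPM in cKO nerves, against 47.7, 67.6 and 61.5 in cHet nerves and 48.4, 44.5 and 75.6 in control nerves. Nearest to *Cntn1* were *Akap6* (0.227), *Spock3* (0.240) and *Adam22* (0.264), and nearest to *Cntnap1* were *Lsamp* (0.178), *Insyn1* (0.193) and *Ryr2* (0.195). Each of these 6 peaked in control 2, the library with the most neuron marker RNA, where *Cntn1* and *Cntnap1* also peak. Genes picked for a like profile share such peaks by that choice, so the shared peaks are no separate evidence.

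TDP-43 binds UG repeats in RNA, so the longest coding transcript of each member in GENCODE M21 was read for TGTGTGTG on its sense strand. *Sptbn1* held 2 runs, both after the coding sequence, and *Epb41l3* held 1 inside the coding sequence, while the other 5 held none in these transcripts. The runs are shown with 8 bases on each side and the repeat in capitals.
Sptbn1 run 1: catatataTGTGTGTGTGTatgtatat
Sptbn1 run 2: tatatgtaTGTGTGTGTGTGTatatatat
Epb41l3 run: ctggaaagTGTGTGTGgagcatca
Among genes whose longest coding transcript is of like length, 52.8% of 1077 genes (for *Sptbn1*) and 30.6% of 4967 genes (for *Epb41l3*) hold the motif, so its presence is common. Introns were not read here. In the *Nfasc* intron that holds CE1, the study reports a UG-rich stretch and TDP-43 binding peaks from mouse brain, downstream of CE1. A search of spliced transcripts cannot find these.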

How the data were processed

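Sciatic nerve RNA from 9 mice (3 per group) was sequenced. The authors deposited normalized TPM per gene, a length-scaled signal, which the submitters' processing notes tie to kallisto 0.44.0, sleuth 0.30.0 and GRCm38. For this quantification the sources used here do not state the annotation release, the strand setting or the scaling. An Ensembl release is given for the study's separate genome alignment alone. Library sums ran from 934932 to 1158094. TPM keep no read depth, so no counting error is given, and p-values measure the spread between mice.

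Genes with a mean of at least 1 (15014) were tested with limma 3.58.1 (trend) in R 4.3.3 on log2(value + 0.5), all 3 groups in one fit, with Benjamini-Hochberg adjustment over all tested genes and a threshold of 0.05. Fold changes are on that scale, which understates those of low genes. Single values and ratios were compared by two-sided exact permutation tests (scipy 1.17.1). With 3 libraries against 3 the smallest p is 0.1. Neuron-high libraries exceeded the median library by over 1.5 (log2). The limma script was tested on simulated data.

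The 7 genes and all lists were chosen with earlier results of these data known. Named genes were the members, *Tardbp* and *Cnp*, relatives used in shares and ratios, up to 4 list genes past the threshold, the 3 nearest profiles and overlapping genes of the opposite strand. Red blood cell, endothelial, fibroblast, perineurial and macrophage marker lists had no library above the 1.5 limit. Alternatives were the pseudocount, filter, scaling, covariates (sex, neuron marker level), groups fitted and libraries left out. Sequences came from the study's *Nfasc* exon list and GENCODE M21.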

Additional observations from a re-analysis of the deposited data

How the results depend on the processing

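No paired analysis was possible because the labels give mouse numbers and no replicate numbers shared by the groups. The direction of *Sptbn1* in the 3 comparisons with cKO was kept in all alternatives (log2 fold changes −0.70 to −0.43), and so was that of *Nfasc* (−0.83 to −0.26). *Nfasc* also passed against cHet with only those groups fitted (adjusted p = 0.0393) and with the adipocyte-high libraries left out (0.0406).

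In cKO against control the count of called genes was 235, and it was 50 with only these groups fitted, 16, 23 and 19 without the neuron-high, muscle-high and adipocyte-high libraries, and 0 without the 3 libraries of differing genotype field. In cKO against cHet it was 256, and 168 with no filter on low values, 14 and 40 without the neuron-high and muscle-high libraries and 0 without the 3 differing libraries. In cKO against both it was 454, and 35, 49 and 166 without the neuron-high, muscle-high and adipocyte-high libraries and 0 without the 3 differing ones. In cHet against control 2 genes passed with no filter. Leaving out 1 library at a time gave 50 to 179 (cKO against control), 55 to 274 (cKO against cHet) and 116 to 428 genes (cKO against both). These fits use fewer libraries, and the cause of the other shifts was not tested.

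Of the 7 members, 0 were called in cKO against control with no filter, median of ratios scaling, only the groups compared, sex or neuron marker level as covariates, or without the neuron-high, muscle-high, adipocyte-high or differing libraries. In cKO against cHet 0 were called without the neuron-high, muscle-high or differing libraries, and in cKO against both 0 without the neuron-high, muscle-high, adipocyte-high or differing libraries. Leaving out 1 library gave 0 in cKO against control and 0 to 2 in the other comparisons with cKO. For cKO against control, 160 of all 26578 tested genes were called with no filter. Of 15014, 169 were called with median of ratios scaling, 50 with only the groups compared, 170 with sex and 273 with neuron marker level as covariates. The counts of all called genes with 1 library left out are those of the paragraph before.

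Signs turned for values that had not passed. Without the 3 libraries of differing genotype field, log2 fold changes were 0.20 (*Cntn1*), 0.86 (*Epb41l3*) and −0.15 (*Sptan1*) for cKO against control, 0.55 (*Cntn1*), 0.52 (*Cntnap1*), 1.22 (*Epb41l3*) and −0.060 (*Sptan1*) against cHet, 0.38, 0.26, 1.04 and −0.11 for the same 4 genes against both, and −0.36 for *Epb41l3* in cHet against control. Without the neuron-high libraries they were 0.47 and 0.15 for *Epb41l3* in cKO against control and against both, and 0.49 (*Cntn1*), 0.055 (*Cntnap1*), 0.19 (*Ank2*) and 0.017 (*Sptan1*) in cHet against control. Without the muscle-high libraries they were −0.034 (*Nfasc*) and −0.39 (*Epb41l3*) in cHet against control and −0.011 (*Sptan1*) in cKO against control. Without the adipocyte-high libraries they were −1.94 (*Epb41l3*) and −0.029 (*Sptbn1*) in cHet against control and −0.20 and −0.028 (*Sptan1*) in cKO against control and against both. With libraries rescaled to the same sum they were 0.026 (*Ank2*, cHet against control) and −0.047, −0.0038 and −0.025 (*Sptan1*, cKO against control, cHet and both). With the neuron marker covariate *Epb41l3* was −0.032 in cHet against control.

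Leaving out 1 library at a time turned the sign of *Epb41l3* (−0.62 to 0.92 for cKO against control, −0.54 to 0.30 against cHet, −0.53 to 0.42 against both and −0.54 to 1.003 for cHet against control) and of *Sptan1* (−0.11 to 0.13 for cKO against control, −0.052 to 0.17 against both). In cHet against control it did so for *Nfasc* (−0.034 to 0.44), *Cntn1* (−0.55 to 0.76), *Cntnap1* (−0.63 to 0.28) and *Ank2* (−0.25 to 0.26). Differences in ratios and shares turned sign likewise for *Nfasc* per *Cntn1* (−7.33 to 9.68, −0.61 to 11.0 and −2.61 to 9.01 for cKO against control, cHet and both), *Cntnap1* per *Cntn1* (−0.087 to 0.18 against control and −0.038 to 0.23 against both), the *Epb41l3* share (−7.49 to 3.92, −3.49 to 2.31 and −4.96 to 1.21 points) and the *Cntnap1* share (−15.8 to 8.08 points against control). Without the neuron-high libraries the *Epb41l3* share differed by 1.02 points (cKO against control) and 0.217 points (against both), and *Nfasc* per *Cntn1* by −1.02.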
